A study of Mus musculus with 107 samples.

Results

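Mest and 9 other imprinted genes, namely Igf2, H19, Dlk1, Meg3, Peg3, Plagl1, Cdkn1c, Grb10 and Ndn, were described across the tumors of 12 mouse syngeneic models. The members were taken by gene name, and all 10 were found among the 50686 genes of the expression table. Mest was selected on its measured difference between lenvatinib-treated and untreated tumors, so that difference, and the level of Mest in the untreated day 8 tumors that enter it, are given as values without a test. The other 9 genes were chosen as well-known imprinted genes, but with earlier results of these data known, so their tests cannot be taken as free of selection.

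RNA-seq of whole tumors was carried out on subcutaneous tumors grown in immunocompetent mice aged 7 weeks at implantation. Base tumors were treatment-naive and were taken at about 100 mm3 (35 tumors). NT tumors were left untreated until day 8 (36 tumors), and LEN tumors came from mice given lenvatinib, an oral inhibitor of VEGF receptors, FGF receptors and other receptor tyrosine kinases, at a daily dose of 10 mg/kg over 7 days and taken on day 8 (36 tumors). Each model had 3 tumors per group, except MC38, which had 2 Base tumors. The models were BNL 1ME A.7R.1 and Hepa 1-6 (liver), Renca and RAG (kidney), LL/2 and KLN205 (lung), CT26.WT and MC38 (colon), 4T1 and EMT6 (breast), MBT2 (bladder) and B16-F10 (melanoma). BNL 1ME A.7R.1, RAG, Renca, CT26.WT, EMT6 and 4T1 were grown in BALB/cAnNCrlCrlj mice, MC38 and B16-F10 in C57BL/6NCrl, LL/2 in C57BL/6JCrl, MBT2 in C3H/HeNCrl, KLN205 in DBA/2NCrl and Hepa 1-6 in C57L/J. The hosts of the 2 liver models were male and the others female, and RAG cells had been adapted to growth in mice. Each model is a single cell line, so its level of a gene is that of the line with its host cells.

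Imprinted genes are transcribed mainly from the allele inherited from 1 parent, under the control of DNA methylation set in the germ line. Mest, Igf2, Dlk1, Peg3, Plagl1 and Ndn are expressed from the paternal allele, whereas H19, Meg3, Cdkn1c and, in most tissues, Grb10 are expressed from the maternal allele. Many of them are abundant in the fetus and act on growth, and their levels fall after birth in most organs. The libraries did not separate the parental alleles, so only the total level of each gene was measured.

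The 10 genes lie on 5 chromosomes of the GRCm38 assembly. Mest (ENSMUSG00000051855, chromosome 6, 30723547 to 30748465, plus strand) encodes an endoplasmic reticulum protein of the alpha/beta hydrolase fold. Its exons share 912 bases with those of Copg2 on the other strand, and the strand setting of the libraries was not given in the sources used here, so reads of the shared bases cannot be told apart. Igf2 (chromosome 7, 142650766 to 142666816, minus strand) and H19 (chromosome 7, 142575529 to 142578143, minus strand) are neighbors, as are Dlk1 (chromosome 12, 109452823 to 109463336, plus strand) and Meg3 (chromosome 12, 109541001 to 109571726, plus strand). Cdkn1c (143458339 to 143461050, minus strand), Peg3 (6703892 to 6730431, minus strand) and Ndn (62346569 to 62350262, plus strand) also lie on chromosome 7. Plagl1 lies on chromosome 10 (13060504 to 13131694, plus strand) and Grb10 on chromosome 11 (11930508 to 12038683, minus strand). Of the miRNA genes inside these loci, Mir335 in Mest, Mir675 in H19, Mir483 in Igf2 and Mir770 in Meg3 were listed at 0 in every tumor.

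The 250 bases upstream of the RefSeq transcription starts (GRCm38.p6) are shown for the 4 members with the largest mean falls after lenvatinib, because imprinting acts on CpG sites. Where a gene has several starts, the window with the most CG dinucleotides was taken. They are written 5′ to 3′ on the strand of the gene, with each CG dinucleotide in capitals. They are Mest (chr6:30737800-30738049), Dlk1 (chr12:109452573-109452822), Meg3 (chr12:109540746-109540995) and Grb10 (chr11:12037421-12037670, minus strand).
Mest: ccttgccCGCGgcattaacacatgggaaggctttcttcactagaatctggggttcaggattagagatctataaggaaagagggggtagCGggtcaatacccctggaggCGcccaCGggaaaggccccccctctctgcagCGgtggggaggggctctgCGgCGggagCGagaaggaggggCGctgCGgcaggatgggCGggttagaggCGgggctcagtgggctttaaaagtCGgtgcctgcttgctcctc
Dlk1: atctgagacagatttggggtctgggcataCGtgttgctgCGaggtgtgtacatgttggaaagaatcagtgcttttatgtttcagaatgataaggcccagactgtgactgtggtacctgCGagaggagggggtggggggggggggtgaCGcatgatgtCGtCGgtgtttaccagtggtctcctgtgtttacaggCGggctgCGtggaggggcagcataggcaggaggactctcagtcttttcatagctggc
Meg3: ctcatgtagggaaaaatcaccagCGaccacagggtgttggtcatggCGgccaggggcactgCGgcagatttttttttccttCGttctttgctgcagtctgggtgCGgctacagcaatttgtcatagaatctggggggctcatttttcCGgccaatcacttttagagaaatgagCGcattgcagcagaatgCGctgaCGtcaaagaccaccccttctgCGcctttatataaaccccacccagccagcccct
Grb10: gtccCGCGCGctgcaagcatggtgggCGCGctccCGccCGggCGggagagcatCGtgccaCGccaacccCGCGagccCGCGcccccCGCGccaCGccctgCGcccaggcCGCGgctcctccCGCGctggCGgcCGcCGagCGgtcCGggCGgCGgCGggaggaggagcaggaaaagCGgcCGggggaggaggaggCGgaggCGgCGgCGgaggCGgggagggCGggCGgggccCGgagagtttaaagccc
These windows hold 14 CG dinucleotides for Mest, 8 for Dlk1, 10 for Meg3 and 40 for Grb10, against a median of 6 over 32851 RefSeq windows of the same length. The Grb10 window held more than 98.7% of all windows and the Mest window more than 70.6%. Windows were found for 8 of the 10 genes, and Plagl1 had 19 CG dinucleotides, Peg3 8 and Ndn 5, while the 4 windows of Igf2 held between 1 and 22. No methylation was measured in these tumors.

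Levels are given as TPM, a unit of transcript abundance scaled to gene length and to the total of each tumor, and differences as log2(TPM + 1) with their standard errors (SE). On this scale the change of a gene below about 1 TPM is understated. The read depth is unknown, since the table holds no counts. The highest correlation of each tumor was with another tumor of its own model in every case. A pair of abundant non-coding RNAs, Rn7s1 and Rn7sk, took 11.4% to 30.3% of all TPM per tumor, and genes above 1 TPM numbered 13629 to 17270. In Base tumors the markers of the labelled tissue were present above 1 TPM in Hepa 1-6, Renca, RAG, KLN205, 4T1 and B16-F10 (3 of 3 in each), in EMT6 (2 of 3) and in MBT2 (1 of 3). None was above 1 TPM in BNL 1ME A.7R.1 (Alb, Apoa1, Afp), CT26.WT and MC38 (Cdx2, Cdh17, Vil1) or LL/2 (Nkx2-1, Sftpc). In a bulk tumor, fewer cells of a type and less RNA per cell cannot be told apart.

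Mest was detected above 1 TPM in every tumor and was lower after lenvatinib in all 12 models. The NT tumors of BNL 1ME A.7R.1 held 152.7, 224.1 and 160.1 TPM of Mest and the LEN tumors 47.4, 46.7 and 50.1 TPM. Those of Renca held 13.9, 12.0 and 17.0 TPM without treatment and 3.18, 1.05 and 1.03 TPM after lenvatinib. Those of Hepa 1-6 held 6.08, 9.05 and 9.34 TPM without treatment and 1.66, 1.70 and 1.40 TPM after it. In each of these 3 models the lowest NT tumor stood well above the highest LEN tumor. The gap was smaller in KLN205, where NT tumors held 15.3, 12.5 and 20.8 TPM of Mest and LEN tumors 11.3, 9.83 and 6.50 TPM. In LL/2 the NT tumors held 9.24, 6.94 and 11.1 TPM and the LEN tumors 6.68, 3.66 and 3.89 TPM. In RAG a LEN tumor at 5.36 TPM lay just below the lowest NT tumor at 5.54 TPM, whereas the other LEN tumors held 1.10 and 2.04 TPM. These were the 3 models with the least distance between the groups. The NT tumors of CT26.WT held 4.02, 5.36 and 8.01 TPM and the LEN tumors 1.30, 1.71 and 1.01 TPM. Those of MC38 held 7.57, 10.2 and 5.89 TPM without treatment and 1.79, 2.39 and 1.27 TPM after lenvatinib. In both colon models all LEN tumors were thus below 3 TPM. The NT tumors of 4T1 held 12.7, 12.6 and 15.6 TPM and the LEN tumors 7.13, 4.60 and 5.87 TPM, and in EMT6 the values were 8.79, 10.7 and 11.9 TPM against 5.98, 3.27 and 5.02 TPM. MBT2 went from 13.1, 12.0 and 7.03 TPM to 5.65, 1.18 and 4.10 TPM. B16-F10 went from 16.3, 9.70 and 11.7 TPM to 5.51, 5.60 and 5.99 TPM. The groups did not overlap in any of the 12 models.

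**Figure D1:**
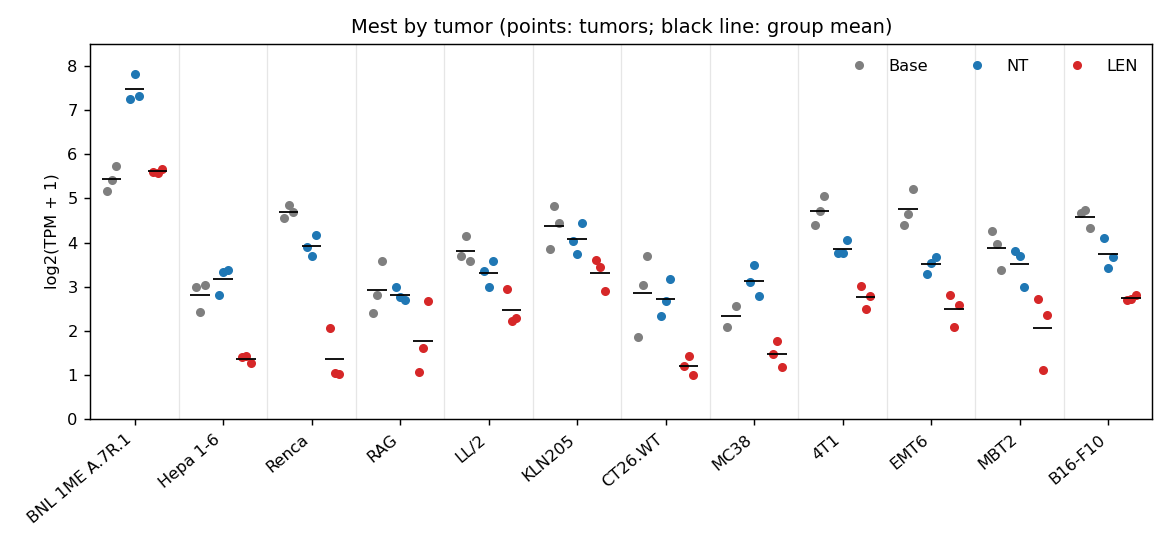
Mest in each tumor as log2(TPM + 1), by model along the x axis, with Base tumors in gray, NT tumors in blue and LEN tumors in red and a black line at each group mean. Every blue point lies above every red point of its model, and BNL 1ME A.7R.1 stands highest, with NT tumors at 152.7 to 224.1 TPM.

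Averaged over the 12 models, Mest was lower in LEN than in NT by a log2 difference of −1.38 (SE 0.0882). The ratio of the NT mean to the LEN mean ran from 1.76 in KLN205 to 8.14 in Renca, with a median of 2.63. The log2 difference was −2.55 in Renca, −1.85 in BNL 1ME A.7R.1, −1.81 in Hepa 1-6, −1.65 in MC38, −1.51 in CT26.WT and −1.44 in MBT2. It was −1.10 in 4T1, −1.04 in RAG, −1.01 in EMT6, −0.99 in B16-F10, −0.83 in LL/2 and −0.75 in KLN205. Of the 17351 genes with a mean of at least 1 TPM, 7 (0.0403%) had every NT tumor above every LEN tumor in all 12 models. Besides Mest these were Cdh5, Gpihbp1, Nid2, Pcdh12, Prnd and Robo4, of which Cdh5 and Robo4 are endothelial adhesion and guidance receptors and Gpihbp1 anchors lipoprotein lipase to capillaries. Since the fall of Mest chose it for this description, its place on that list is not a result.

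The endothelial markers of the same tumors moved with Mest. All 8 of Pecam1, Cdh5, Kdr, Tie1, Emcn, Cldn5, Esam and Robo4 were lower in LEN than in NT, with a median log2 difference of −0.85 against −0.0019 over all genes. Their summed level was 31.2 to 154.2 TPM in NT tumors and 14.8 to 81.2 TPM in LEN tumors. The ratio of mean summed endothelial level in NT to that in LEN ran from 1.23 in Hepa 1-6 to 2.73 in BNL 1ME A.7R.1, with a median of 2.15. The median for Mest was 2.63. Mest was picked for its large fall, so a ratio above that of the markers is not a result. In Hepa 1-6 the endothelial sum was 78.2 to 102.7 TPM in NT and 65.5 to 81.2 TPM in LEN, a ratio of 1.23 against 5.14 for Mest. The order was the other way in KLN205 (2.06 for the endothelial sum, 1.76 for Mest), LL/2 (2.31 and 1.91) and B16-F10 (2.24 and 2.20). The 6 pericyte markers were also lower in LEN (6 of 6, median −0.56), with a summed level of 12.3 to 220.2 TPM in NT and 7.77 to 195.2 TPM in LEN, and 6 of 6 proliferation genes were lower (median −0.35). Of the 6 macrophage markers, 5 were lower (median −0.38), with a summed level of 60.3 to 1332 TPM in NT and 196.2 to 1240 TPM in LEN. Within groups, r with Mest was 0.41 for macrophage and 0.24 for proliferation markers. The part of these cells in the level of Mest was not tested.

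Across tumors within a model and group, the 5 genes most like Mest were Cxx1a (Pearson's r 0.64), Sox18 (0.59), Sema6b (0.57), Nxpe5 (0.57) and Pcdh12 (0.57). These r values are over all tumors (35 Base, 36 NT and 36 LEN) as deviations from the mean of model and group. Sox18 is a transcription factor of endothelial cells and Pcdh12 a protocadherin of endothelial cells. Mest itself correlated with the mean log2 level of the endothelial markers at 0.57 and with that of the pericyte markers at 0.55. All r values with marker lists use the mean of log2(TPM + 1) over the markers, not their summed TPM. Over the 12 model means of Base tumors, the most similar genes were Gm42934 (0.91), Aplnr (0.87), 4930405O22Rik (0.86), Lmbr1 (0.82) and Vash1 (0.82). Aplnr is the apelin receptor and Vash1 the angiogenesis inhibitor vasohibin 1. These values describe tumors that share libraries and composition, and no test was made of them.

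Copg2, which shares exonic bases with Mest on the other strand and encodes a subunit of the COPI vesicle coat, had a median of 17.6 TPM in NT and 17.1 TPM in LEN tumors. Its groups overlapped in 10 of 12 models, and its mean difference was −0.055 (limma, adjusted p = 0.42).

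Of the other members, 6 had a mean of at least 1 TPM in the 72 day 8 tumors and entered the fit, with 4 lower and 2 higher in LEN than in NT (limma, Benjamini-Hochberg adjusted p under 0.05 over 17351 genes). Over all genes fitted, 9.87% were lower and 13.7% higher. The genes that fell were Grb10 (−0.53, SE 0.0635, adjusted p = 2.8e-09), Meg3 (−0.62, SE 0.107, adjusted p = 1.08e-05), Peg3 (−0.27, SE 0.0566, adjusted p = 0.000194) and Plagl1 (−0.21, SE 0.0717, adjusted p = 0.0235). The genes that rose were H19 (0.65, SE 0.105, adjusted p = 3.37e-06) and Igf2 (0.18, SE 0.0593, adjusted p = 0.0218). Without BNL 1ME A.7R.1 the H19 difference was 0.40 (adjusted p = 0.0085). With the replicate number as a block, the Igf2 call was lost (adjusted p = 0.0568). Dlk1, Cdkn1c and Ndn were below a mean of 1 TPM and were read from a fit of all 37673 genes with any signal, in which 4.85% were lower and 7.21% higher. There Dlk1 fell (−0.47, SE 0.0571, adjusted p = 8.34e-09), whereas Cdkn1c (0.12, SE 0.0732, adjusted p = 0.356) and Ndn (0.026, SE 0.0317, adjusted p = 0.675) did not pass the test.

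**Figure D2:**
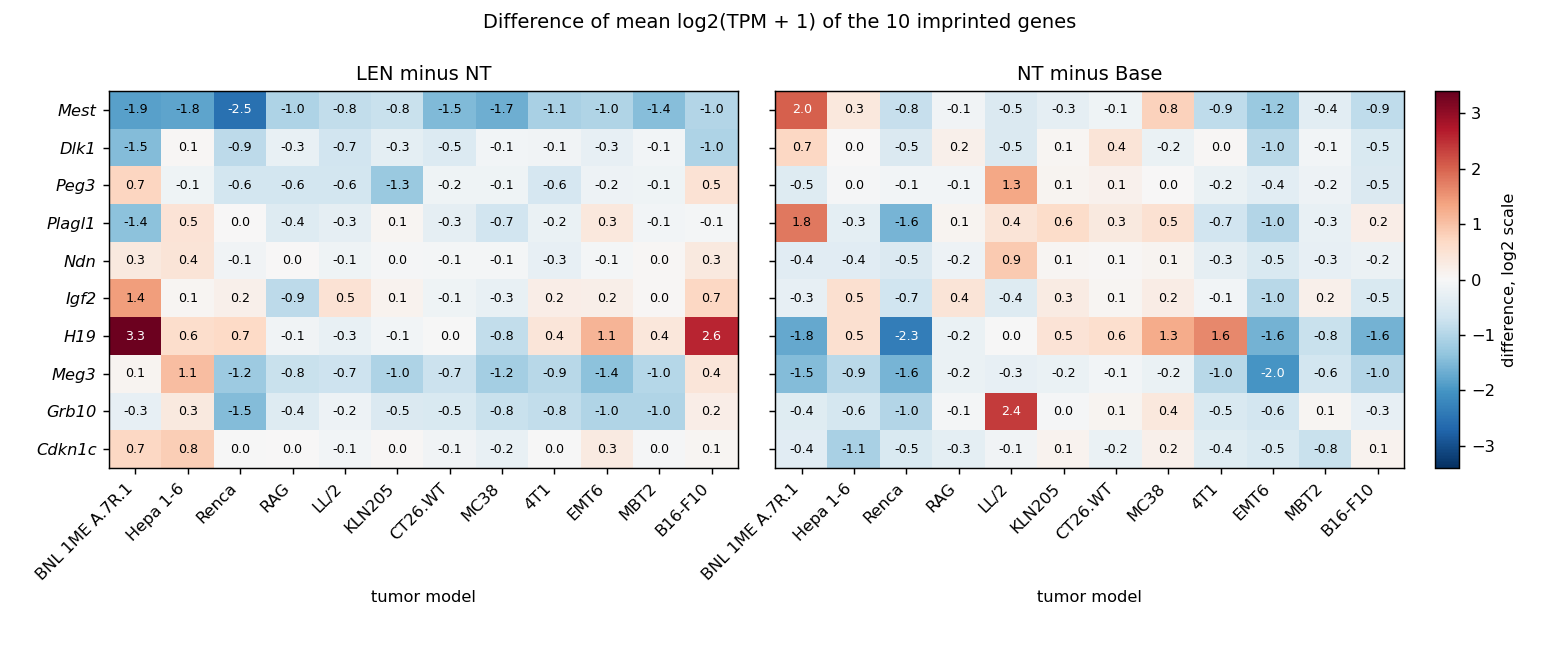
Differences of mean log2(TPM + 1) for the 10 genes (rows) in the 12 models (columns), LEN minus NT on the left and NT minus Base on the right, with red for higher and blue for lower in the first group named and the value in each cell. The Mest row is blue in all 12 columns on the left, from −0.8 to −2.5, and H19 is the most strongly red row, at 3.3 in BNL 1ME A.7R.1 and 2.6 in B16-F10.

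The effect of lenvatinib differed between models for all 6 of the genes fitted (F test of limma over the 12 effects, adjusted p under 0.05), as it did for 35.3% of all genes. Within a single model, with 3 tumors against 3, 8 of the 51 tests made on members other than Mest passed, against 1.3% of all tests lower and 3.56% higher. The number that passed was 16 with all 72 day 8 tumors fitted together and 5 with a minimum of 5 TPM. Of these 8, 5 were in BNL 1ME A.7R.1, where 5.21% of all genes were lower and 26.3% higher. Among them, Dlk1 and Peg3 passed the filter at 1 TPM only through the group in which they were higher. Their calls are therefore not independent of the filter. The others were in B16-F10 (2.42% lower, 8.57% higher), EMT6 (0.0968% lower, 0.819% higher) and Renca (7.15% lower, 4.91% higher).

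Among the paternally expressed genes, Dlk1, a Notch-like transmembrane protein of fetal and progenitor cells, was lower on average in 11 of 12 models. BNL 1ME A.7R.1 tumors held 3.31, 2.34 and 2.28 TPM of Dlk1 in NT and 0.34, 0.45 and 0.12 TPM in LEN (−1.48, SE 0.207, adjusted p = 0.00251). Dlk1 entered the fit of this model only through its NT tumors, since its LEN mean was 0.30 TPM. B16-F10 tumors held 1.39, 1.41 and 1.39 TPM in NT and 0.19, 0.26 and 0.04 TPM in LEN. Renca tumors held 1.17, 1.88 and 1.11 TPM in NT and 0.77, 0.04 and 0.11 TPM in LEN. Dlk1 was listed at 0 in 17 of 36 LEN tumors and in 6 of 36 NT tumors, and no LEN tumor reached 1 TPM. In 6 of 12 models every NT tumor lay above every LEN tumor, against 10.6% over all genes and models, and in Hepa 1-6 the means went the other way, with NT tumors at 0, 0.26 and 0.30 TPM and LEN tumors at 0.23, 0.31 and 0.13 TPM.

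Peg3, a zinc finger protein, was lower in LEN on average in 10 of 12 models. It was below 1 TPM in 37 of the 72 day 8 tumors. KLN205 tumors held 3.05, 3.70 and 6.78 TPM of Peg3 in NT and 1.13, 1.53 and 0.94 TPM in LEN. LL/2 tumors held 10.4, 11.8 and 8.99 TPM in NT and 6.19, 7.06 and 5.78 TPM in LEN. These groups did not overlap, but neither model passed the test on its own (adjusted p = 0.112 and 0.11), and without KLN205 the average was −0.18 (adjusted p = 0.013). Peg3 entered the fit of BNL 1ME A.7R.1 only through its LEN tumors, since its NT mean was 0.81 TPM. In this model Peg3 rose instead, from 1.2, 0.56 and 0.68 TPM to 1.97, 1.83 and 2.05 TPM (0.72, SE 0.196, adjusted p = 0.0313). This call was lost without any of 5 of the 6 tumors (adjusted p up to 0.0932) and with protein-coding (0.0591) or upper-quartile rescaling (0.0727).

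Plagl1, a zinc finger transcription factor that arrests the cell cycle, fell in BNL 1ME A.7R.1 from 20.96, 22.3 and 16.7 TPM in NT to 6.49, 5.93 and 8.86 TPM in LEN (−1.38, SE 0.164, adjusted p = 0.00126). Over all models it was below 1 TPM in 39 of the 72 day 8 tumors. In B16-F10, which had by far the most Plagl1, NT tumors held 183.4, 216.6 and 177.3 TPM and LEN tumors 171.1, 179.0 and 197.1 TPM, and the groups overlapped. The average fall of Plagl1 rested on BNL 1ME A.7R.1, and without that model it was −0.11 (adjusted p = 0.364). It also missed the threshold without MC38 (−0.17, adjusted p = 0.0941) or RAG (−0.19, adjusted p = 0.0608), and with a pseudocount of 0.1 (−0.27, adjusted p = 0.215). Ndn, the growth suppressor necdin, stayed between 0.03 and 1.30 TPM in the day 8 tumors.

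Igf2, the fetal insulin-like growth factor, was below 1 TPM in 51 of the 72 day 8 tumors. It rose in BNL 1ME A.7R.1 from 0.86, 1.54 and 0.99 TPM in NT to 4.78, 5.44 and 3.82 TPM in LEN (1.42, SE 0.186, adjusted p = 0.00192). In B16-F10 it was listed at 0.04, 0 and 0 TPM in NT and stood at 0.82, 0.53 and 0.65 TPM in LEN. RAG went the other way, from 1.80, 1.05 and 1.05 TPM in NT to 0.21, 0.15 and 0.36 TPM in LEN. KLN205 had the most Igf2, and its NT tumors at 21.9, 24.3 and 17.2 TPM overlapped with its LEN tumors at 20.9, 24.8 and 22.5 TPM. The average rise of Igf2 missed the threshold without BNL 1ME A.7R.1 (0.066, adjusted p = 0.518), without B16-F10 (0.13, adjusted p = 0.16) and without LL/2 (0.15, adjusted p = 0.0765), and it was 0.27 without RAG.

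Among the maternally expressed genes, H19, a long non-coding RNA that shares an imprinting control region with Igf2, rose most. In BNL 1ME A.7R.1 it went from 7.59, 8.83 and 6.77 TPM in NT to 95.8, 76.7 and 87.7 TPM in LEN (3.33, SE 0.117, adjusted p = 1.54e-05). In B16-F10 it went from 1.79, 0.91 and 0.94 TPM to 15.1, 11.1 and 10.6 TPM (2.59, SE 0.2, adjusted p = 0.00175). In EMT6 it went from 3.90, 4.05 and 3.78 TPM to 11.5, 7.62 and 10.9 TPM (1.14, SE 0.165, adjusted p = 0.0397). None of these groups overlapped, but the EMT6 value missed the threshold when any of 5 of its 6 tumors was left out (adjusted p up to 0.159). It also missed it with the replicate block (0.156), with no minimum TPM (0.099), without the trend (0.0813), with all 72 tumors fitted together (0.0712) and with upper-quartile (0.0689) or protein-coding rescaling (0.0679). Every LEN tumor lay above every NT tumor for H19 in these models and in Renca, that is in 4 of 12 models, against 12.7% over all genes and models. H19 was lower on average in LEN in 5 of the 12 models, among them MC38, where NT tumors held 9.24, 21.7 and 8.05 TPM and LEN tumors 6.18, 7.18 and 5.16 TPM. In 4T1, the model with the highest level, NT tumors held 416.1, 317.9 and 396.9 TPM and LEN tumors 467.5, 409.9 and 637.2 TPM, and the ranges overlapped.

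The skeletal muscle markers of the tumors moved with H19 in part of the models. All 6 of Ckm, Acta1, Myh4, Tnnt3, Mylpf and Atp2a1 were higher in LEN (median log2 difference 1.14), and their summed level was 2.59 to 164.9 TPM in NT and 4.13 to 2503 TPM in LEN tumors. In BNL 1ME A.7R.1 the sum was 39.8 to 118.3 TPM in NT and 1727 to 2503 TPM in LEN, and in B16-F10 it was 2.59 to 23.1 TPM in NT and 137.6 to 219.6 TPM in LEN. In EMT6 it was 35.4 to 42.8 TPM in NT and 55.8 to 78.7 TPM in LEN. These were the 3 models in which H19 rose past the threshold. The ratio of the mean sums was 23.7 in BNL 1ME A.7R.1, 17.9 in B16-F10 and 1.75 in EMT6, and it was 3.04 in Hepa 1-6 and 2.01 in MBT2, where the H19 groups overlapped. In LL/2 it was 1.77, with an H19 difference of −0.26. Across tumors within a model and group, H19 correlated with the mean log2 level of the muscle markers at r 0.57 over all tumors. With that of the endothelial markers, which were lower in LEN in every model, r was 0.46. Other lists moved in the same models. The mean adipocyte sum went from 2.88 TPM in NT to 46.2 TPM in LEN in BNL 1ME A.7R.1 and from 2.64 to 11.6 TPM in B16-F10, and 6 of 6 hypoxia genes were higher in LEN on average (median 0.58). The mean muscle sum was more than 5 times higher in LEN than in NT in BNL 1ME A.7R.1 and B16-F10, which are also the models with the largest H19 differences. The part of muscle tissue, or of these other markers, in the level of H19 was not tested.

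**Figure D3:**
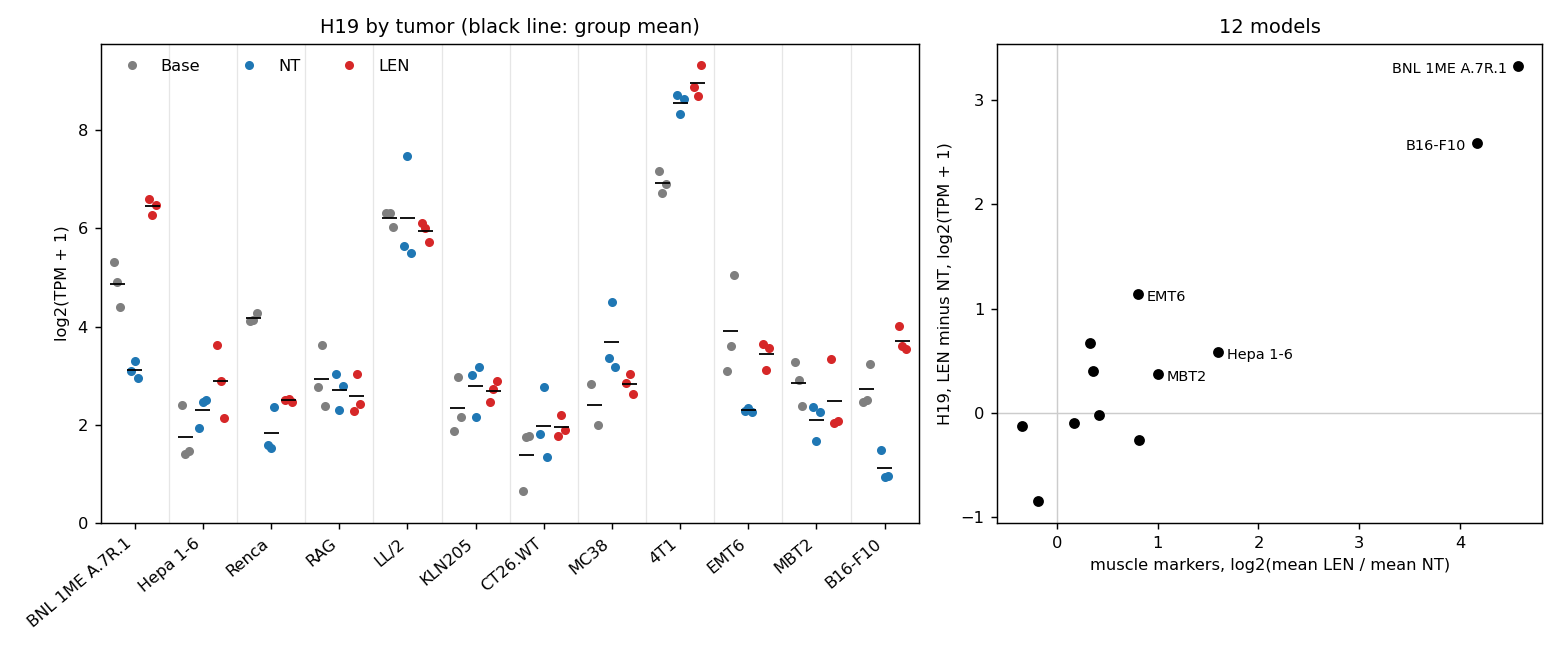
H19 in each tumor as log2(TPM + 1) by model and group, with a black line at the group mean (left), and the LEN minus NT difference of H19 in each of the 12 models against the log2 ratio of the mean summed level of 6 skeletal muscle markers, LEN over NT (right). BNL 1ME A.7R.1 (3.33) and B16-F10 (2.59) stand apart at the upper right.

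Meg3, a long non-coding RNA of the Dlk1 locus, was lower in LEN on average in 9 of 12 models, and every NT tumor lay above every LEN tumor in 8 of them. Over all genes and models such a separation was found in 10.6% of cases, and 0.743% of genes had it in 8 or more models. In 4T1 the NT tumors held 25.4, 41.0 and 18.5 TPM of Meg3 and the LEN tumors 16.5, 11.6 and 12.9 TPM. In MC38 they held 14.5, 20.5 and 17.0 TPM in NT and 5.57, 7.00 and 9.14 TPM in LEN. The models that went the other way were Hepa 1-6 (1.05), B16-F10 (0.41) and BNL 1ME A.7R.1 (0.10). Hepa 1-6 tumors held 8.00, 11.4 and 25.1 TPM in NT and 32.4, 24.6 and 29.3 TPM in LEN, with overlap. No model passed the test on its own, with adjusted p from 0.064 in Renca to 0.736 in 4T1.

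Grb10, an adaptor protein that dampens insulin and insulin-like growth factor receptor signaling, was lower in LEN on average in 10 of 12 models and without overlap in 8 of them. Such a separation was found in 10.6% of cases over all genes and models, and in 8 or more models for 0.743% of genes. Renca tumors held 5.62, 3.62 and 5.27 TPM of Grb10 in NT and 1.54, 0.86 and 0.90 TPM in LEN (−1.47, SE 0.195, adjusted p = 0.00428). MBT2 tumors held 2.95, 2.41 and 3.41 TPM in NT and 1.19, 1.03 and 0.59 TPM in LEN. EMT6 tumors held 6.09, 3.51 and 6.79 TPM in NT and 2.13, 1.91 and 2.34 TPM in LEN. The groups were apart in all 3 models, and only that of Renca passed the test on its own. Hepa 1-6 (0.33) and B16-F10 (0.23) went the other way, as they did for Meg3. Cdkn1c, the cyclin-dependent kinase inhibitor p57, was below 1 TPM in 62 of 72 day 8 tumors.

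**Figure D4:**
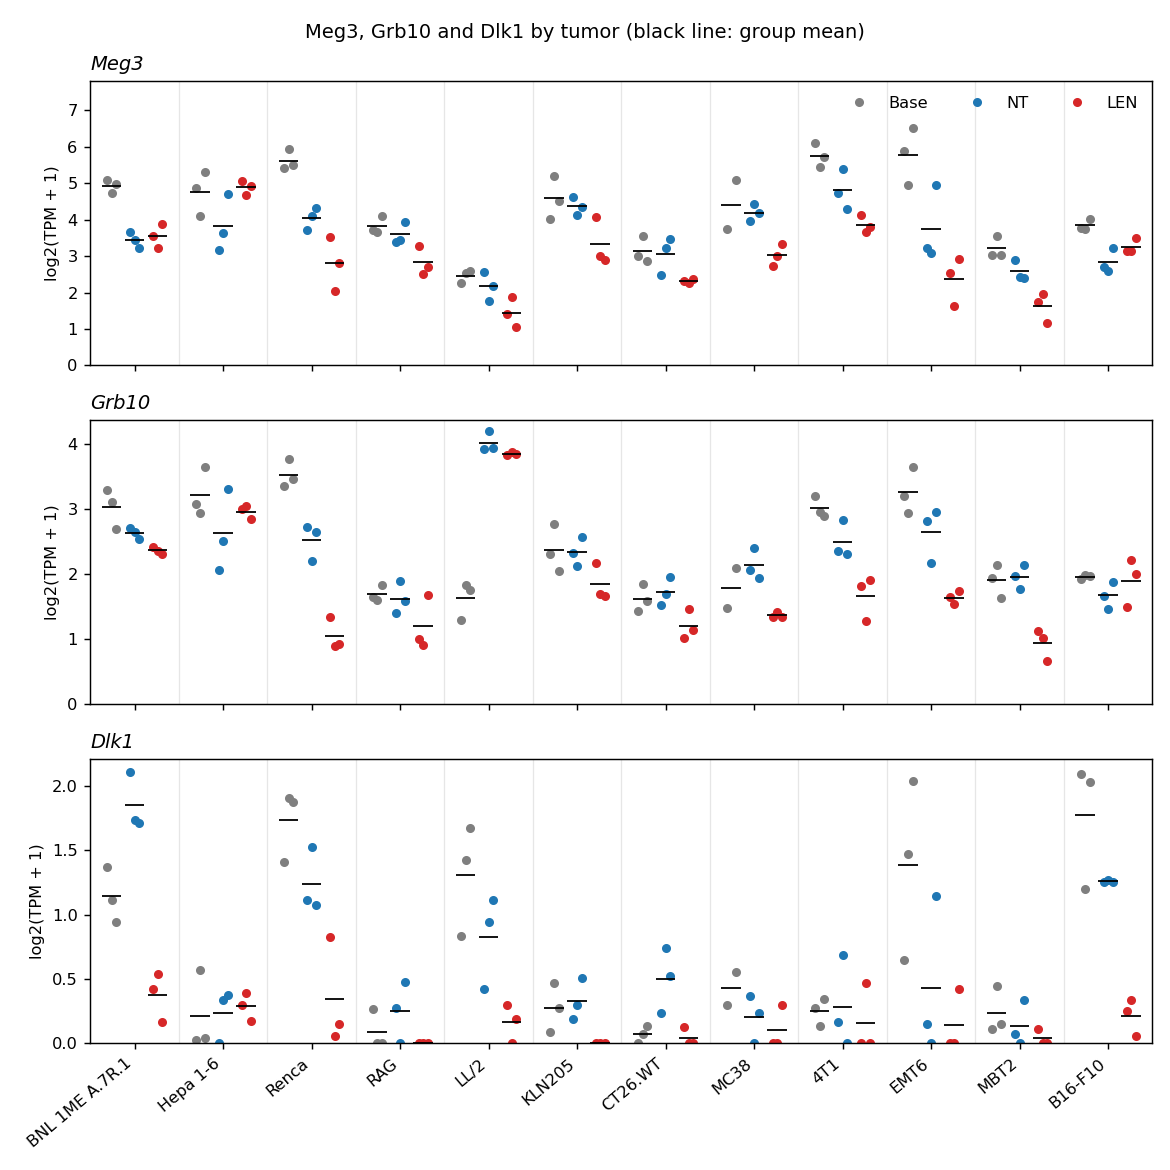
Meg3 (top), Grb10 (middle) and Dlk1 (bottom) in each tumor as log2(TPM + 1), with Base in gray, NT in blue, LEN in red and a black line at each group mean. LEN tumors lie lowest for Meg3 and Grb10 in most models, with Hepa 1-6 and B16-F10 as exceptions for both and BNL 1ME A.7R.1 for Meg3, and Grb10 in LL/2 is far higher in both day 8 groups than in Base.

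A fit without BNL 1ME A.7R.1 and B16-F10 was added after the values were seen. These models held the largest rises of H19 and Igf2, the only average rises of Peg3, and rises of Meg3 (both) and Grb10 (B16-F10), so the choice itself moves these averages and the values are a description. Without them 3 members were lower, where 9.21% of all genes were lower and 5.45% higher. These were Meg3 (−0.79), Grb10 (−0.64) and Peg3 (−0.45), whereas Plagl1 was −0.11 (adjusted p = 0.42), H19 0.18 and Igf2 0.00067. Dlk1 was −0.32 with no minimum TPM, and Mest stood at −1.37.

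Meg3, Grb10 and Ndn varied together. Across tumors within a model and group, r was 0.62 for Meg3 with Grb10, 0.54 for Meg3 with Ndn and 0.49 for Grb10 with Ndn over all tumors. Over the 12 model means of Base tumors the same pairs gave 0.88, 0.80 and 0.87. Within groups, their r with the mean log2 level of the fibroblast markers was 0.77 for Meg3, 0.61 for Grb10 and 0.62 for Ndn, against 0.36 for Mest. With pericyte markers r was 0.63, 0.53 and 0.52, and with endothelial markers 0.54, 0.54 and 0.46. Over the Base means, Grb10 had an r of 0.90 with endothelial and 0.80 with fibroblast markers. The mean endothelial and pericyte sums were lower in LEN than in NT in all 12 models. The mean fibroblast sum was higher in LEN than in NT in only 2 of 12 models, B16-F10 (525.3 against 144.5 TPM) and Hepa 1-6 (2305 against 1191 TPM), which are those where both Meg3 and Grb10 were higher. Of the 6 fibroblast markers, 1 was lower in LEN and none higher. The part of these cells in the levels of the 3 genes was not tested.

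In Base tumors, the levels of imprinted genes differed widely between models. All 7 members with a mean of at least 1 TPM passed the F test between models (limma), as did 93.6% of the 17542 genes tested, so passing it does not set the members apart. The standard deviation between model means was 1.93 for Plagl1 and 1.73 for H19 on the log2 scale, larger than that of 98.6% and 97.5% of genes. It was 1.10 for Igf2, 1.09 for Meg3, 0.99 for Mest, 0.74 for Grb10 and 0.63 for Peg3, against a median of 0.52 over all genes.

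Plagl1 was a gene of B16-F10, with 168.8, 166.3 and 156.0 TPM in its Base tumors, while the next model, BNL 1ME A.7R.1, held 6.19, 5.02 and 4.00 TPM. H19 was highest in 4T1 (121.7 ± 19.2 TPM, SD, n = 3), then in LL/2 (73.8 ± 8.27 TPM) and BNL 1ME A.7R.1 (29.2 ± 9.22 TPM), each apart from the next. From Renca (17.1 ± 1.11 TPM) down to CT26.WT (1.79 ± 1.06 TPM) the ranges of neighboring models overlapped. Igf2 was highest in KLN205 (17.2 ± 3.64 TPM) and then in Hepa 1-6 (3.68 ± 0.512 TPM), both apart from the next model, and neighbors below them overlapped. H19 and Igf2 therefore had their highest levels in different models, and over the 12 Base means their r was −0.20.

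Mest was highest in BNL 1ME A.7R.1 (43.1 ± 8.91 TPM) and lowest in MC38 (4.09 ± 1.16 TPM, n = 2). Between them came EMT6 (26.8 ± 8.39 TPM), 4T1 (25.9 ± 6.11 TPM), Renca (25.0 ± 2.66 TPM), B16-F10 (23.2 ± 3.47 TPM) and KLN205 (20.6 ± 7.02 TPM). MBT2 (14.1 ± 4.46 TPM), LL/2 (13.2 ± 2.97 TPM), CT26.WT (7.29 ± 4.69 TPM), RAG (7.09 ± 3.41 TPM) and Hepa 1-6 (6.21 ± 1.60 TPM) followed. No pair of neighbors in this order was apart. Meg3 was highest in EMT6 (58.9 ± 29.9 TPM), 4T1 (53.9 ± 12.8 TPM) and Renca (48.6 ± 9.85 TPM), whose ranges overlapped, and lowest in LL/2 (4.51 ± 0.648 TPM). Grb10 was highest in Renca (10.7 ± 1.78 TPM) and lowest in CT26.WT (2.11 ± 0.458 TPM). Peg3 lay between 0.44 ± 0.0656 TPM in CT26.WT and 3.97 ± 0.755 TPM in KLN205.

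**Figure D5:**
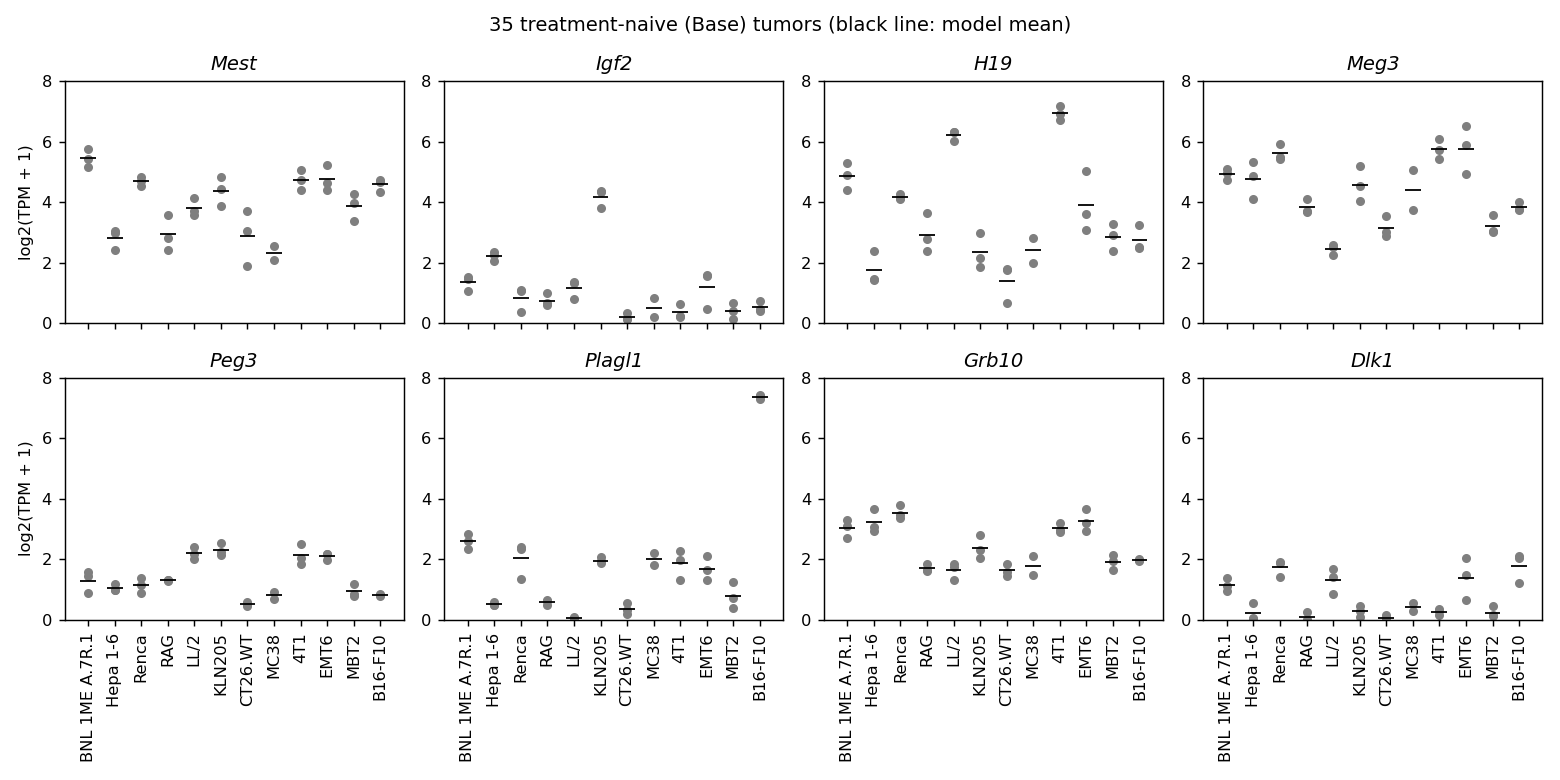
Levels of 8 imprinted genes in the 35 Base tumors as log2(TPM + 1), by model along the x axis, with a gray point per tumor and a black line at the model mean. Plagl1 stands out in B16-F10 (156.0 to 168.8 TPM), H19 in 4T1 and LL/2, and Igf2 in KLN205.

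The NT tumors were next compared with Base, a comparison that shares the NT tumors with the one above. The labels give no sequencing batch, and the paper names NovaSeq and NextSeq sequencers without saying which tumors each read. In EMT6, protein-coding genes took 43.5% to 45.9% of TPM in Base and 57.2% to 61.0% in NT, whereas in Renca the ranges overlapped. Growth to day 8 and any difference between the collections therefore cannot be told apart. Meg3 was lower on average in NT than in Base in 12 of 12 models, as were 0.172% of all genes, with a mean log2 difference of −0.80 (SE 0.11, adjusted p = 4.19e-07). EMT6 went from 57.5, 29.8 and 89.5 TPM of Meg3 in Base to 8.34, 7.55 and 29.8 TPM in NT (−2.02, adjusted p = 4.43e-05). Renca went from 42.1, 60.0 and 43.9 TPM to 12.2, 16.1 and 19.03 TPM (−1.57, adjusted p = 0.00337). The groups were apart in Renca, whereas in EMT6 an NT tumor lay just above a Base tumor. Every Base tumor lay above every NT tumor in 5 of 12 models, against 13.7% of all genes and models. Of the endothelial markers 5 of 8, and of the fibroblast markers 2 of 6, were lower in NT than in Base and none higher. So were 6 of 6 skeletal muscle genes (median −1.21), 4 of 4 adipocyte genes tested (median −0.77) and 2 of 6 macrophage genes. No pericyte gene was called, and 4 of 6 hypoxia genes were higher. The mean fibroblast sum was higher in Base than in NT in 9 of 12 models, by 3.75 times in Renca and 1.12 times in EMT6. In BNL 1ME A.7R.1, where Meg3 also fell (−1.48, adjusted p = 0.0022), from 32.9, 25.4 and 30.4 TPM to 11.6, 9.91 and 8.33 TPM, the mean fibroblast sum went the other way, from 5598 TPM in Base to 11800 TPM in NT. The part of these cells in the lower level of Meg3 was not tested.

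Across the 12 models, 2 of the 6 members tested were lower in NT than in Base and none higher, against 11.5% and 17% of the 17428 genes tested. The other was H19 (−0.32, SE 0.123, adjusted p = 0.0452), which sat at the threshold and missed it when any of 36 of the 71 untreated tumors was left out. It also missed it with the replicate block (adjusted p = 0.0672), with no minimum TPM (0.0763) and without B16-F10, BNL 1ME A.7R.1, EMT6, MBT2, RAG or Renca (0.0512 without RAG to 0.473 without Renca). Peg3 (−0.031, adjusted p = 0.735), Grb10 (−0.052, adjusted p = 0.606), Igf2 (−0.10, adjusted p = 0.242) and Plagl1 (0.020, adjusted p = 0.874) did not pass. With a pseudocount of 0.1, Igf2 passed as lower (−0.40, adjusted p = 0.0382). Without the filter at 1 TPM, Cdkn1c (−0.33, adjusted p = 0.00617) and Ndn (−0.13, adjusted p = 0.0185) were lower and Dlk1 did not pass (−0.11, adjusted p = 0.353), against 7.51% of genes lower and 7.56% higher. Ndn missed the threshold without 4T1, BNL 1ME A.7R.1, EMT6, Hepa 1-6 or Renca. The difference varied between models for all 6 members (F test of limma), as it did for 66.5% of genes. Mest differed by −0.17 (SE 0.0896) on average, and was lower in 9 models. It was higher in BNL 1ME A.7R.1 (2.03), MC38 (0.80) and Hepa 1-6 (0.35), so the average mixes both directions. In BNL 1ME A.7R.1 its Base tumors held 34.9, 41.8 and 52.6 TPM, all below the NT tumors. The Base tumors of MC38, at 3.27 and 4.91 TPM, were also all below its NT tumors.

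Within models, H19 went in both directions between Base and NT. All such contrasts were drawn from the fit of the 71 untreated tumors, in which 27.9% of genes passed in BNL 1ME A.7R.1, 33.3% in EMT6, 14.7% in 4T1, 11.5% in Renca and 2.12% in B16-F10. It fell in Renca from 16.3, 16.5 and 18.3 TPM to 2.03, 1.88 and 4.18 TPM (−2.34, adjusted p = 0.000102) and in BNL 1ME A.7R.1 from 38.6, 29.0 and 20.1 TPM to 7.59, 8.83 and 6.77 TPM (−1.75, adjusted p = 0.00128). It also fell in EMT6 (−1.62, adjusted p = 0.00256) and B16-F10 (−1.61, adjusted p = 0.0258), calls that were lost without 1 tumor in EMT6 (adjusted p = 0.0719) and without any of 3 in B16-F10 (up to 0.186). It rose in 4T1 from 141.9, 103.8 and 119.3 TPM to 416.1, 317.9 and 396.9 TPM (1.63, adjusted p = 0.00591). All 6 skeletal muscle markers were lower in NT than in Base on average (median −1.21), and the mean muscle sum was 4.79 times higher in Base than in NT in Renca, 5.36 times in BNL 1ME A.7R.1, 4.14 times in EMT6 and 11.5 times in B16-F10. It was also 4.07 times higher in LL/2, where the H19 difference was −0.013, and 2.996 times higher in Hepa 1-6, where it was 0.55. In 4T1, where H19 rose, the muscle sum was 10.2 to 49.3 TPM in Base and 14.7 to 42.5 TPM in NT.

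In LL/2, Grb10, Peg3, Ndn and Plagl1 were higher in every tumor of both day 8 groups than in every Base tumor. Over all genes fitted and all models, every NT tumor lay above every Base tumor in 15.8% of cases. No share was taken for LL/2 alone or for both day 8 groups. Whether the Base and the day 8 tumors of LL/2 were grown from 1 stock of cells was not given in the sources used here, so growth to day 8 and the source of the tumors cannot be told apart. Its Base tumors held 1.47, 2.59 and 2.37 TPM of Grb10, its NT tumors 14.2, 17.4 and 14.4 TPM and its LEN tumors 13.3, 13.8 and 13.5 TPM. The difference of NT and Base was 2.39 for Grb10 (SE 0.231, adjusted p = 4.42e-11) and 1.32 for Peg3 (SE 0.198, adjusted p = 2.92e-06), where 13% of all genes passed in LL/2. Ndn went from 0.07, 0.11 and 0.02 TPM in Base to 1.19, 0.71 and 1.09 TPM in NT and 0.76, 0.97 and 0.67 TPM in LEN. Plagl1 stood at 0.02 to 0.07 TPM in Base, 0.09 to 1.30 TPM in NT and 0.10 to 0.16 TPM in LEN, and both genes were close to 0 in Base. In no other model did Grb10 rise past the threshold, and in Renca (−1.01, adjusted p = 0.00214) and EMT6 (−0.61, adjusted p = 0.0362) it fell. The EMT6 call was lost without any of 3 of its tumors (adjusted p up to 0.274), with no minimum TPM (0.0645) and with a pseudocount of 0.1 (0.054). Without LL/2, Grb10 was lower in NT than in Base over the remaining models (−0.27, adjusted p = 0.00308). Plagl1 also went in both directions, rising in BNL 1ME A.7R.1 from 6.19, 5.02 and 4.00 TPM to 20.96, 22.3 and 16.7 TPM (1.80, adjusted p = 5.63e-07) and falling in Renca from 1.55, 4.04 and 4.23 TPM to 0.16, 0.55 and 0.42 TPM (−1.57, adjusted p = 2.98e-05).

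Other imprinted genes changed in both directions. Of 54 further imprinted genes, 34 had a mean of at least 1 TPM, and 7 were lower and 7 higher in LEN than in NT, where 9.87% of all genes were lower and 13.7% higher. Their median log2 difference was −0.0018, against −0.0019 over all genes. The genes that fell included Rian (−0.57, adjusted p = 0.000253) and Mirg (−0.39, adjusted p = 0.00018), non-coding RNAs downstream of Meg3. They also included Ppp1r9a (−0.34, adjusted p = 3.57e-07), Peg10 (−0.23, adjusted p = 9.45e-07) and Sgce (−0.22, adjusted p = 0.000126), which are neighbors on chromosome 6, together with Kcnq1 (−0.21, adjusted p = 0.0286). Those that rose included Dcn, which encodes the matrix protein decorin (0.36, adjusted p = 0.00551), and Slc22a18 (0.25, adjusted p = 0.000216), Phlda2 (0.22, adjusted p = 0.03) and Nnat (0.19, adjusted p = 0.000601). The rises of Slc22a18 and Phlda2 rested on BNL 1ME A.7R.1, where Slc22a18 stood at 0.50 to 0.79 TPM in NT and 9.37 to 10.3 TPM in LEN and Phlda2 at 0 to 0.60 TPM and 5.10 to 7.75 TPM. Without that model they were 0.031 (adjusted p = 0.769) and 0.0033 (adjusted p = 0.986), in a fit added after the values were seen. Without it Kcnq1 was −0.50 (adjusted p = 2.63e-06). Rian had a median of 17.3 TPM in Base, 9.33 TPM in NT and 6.10 TPM in LEN tumors, the same order as Meg3 (16.3, 10.1 and 6.77 TPM).

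In the insulin-like growth factor system that Igf2 and Grb10 belong to, 3 of 14 genes were lower and 3 higher in LEN, with the same 9.87% and 13.7% over all genes, and the median difference of the list was −0.054. Igfbp3, a binding protein that carries the growth factors, fell most (−1.48, SE 0.0497, adjusted p = 9.97e-30). Its NT tumors lay above all LEN tumors in 10 of 12 models, the exceptions being KLN205 (358.6 to 417.6 TPM in LEN) and Hepa 1-6 (305.2 to 384.4 TPM in LEN), which had the highest levels. Over all genes, 0.743% were separated in this way in 8 or more models. Igfbp7 (−0.40, adjusted p = 1.54e-07) and Igf1 (−0.26, adjusted p = 0.0264) also fell. Igfbp5 (0.52, adjusted p = 4.44e-07, and 0.32, adjusted p = 0.00419, without BNL 1ME A.7R.1), Igfbp6 (0.32, adjusted p = 0.00285) and Igf2bp2 (0.19, adjusted p = 0.00213) rose.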

How the data were processed

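The deposited table gave expression of 50686 genes in 107 tumors as TPM, which the authors calculated from rRNA-depleted libraries. Reads were trimmed with Trimmomatic 0.36 and aligned with STAR 2.5.2b, and genes were quantified with RSEM 1.2.31 on mm10 with Ensembl release 88. Groups were taken from the sample labels. TPM keeps no depth, so neither counts nor counting intervals were available. The members and gene lists were chosen with earlier results of these data known. Positions came from GENCODE M21, and promoter windows from RefSeq (GRCm38.p6).

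Values were analyzed as log2(TPM + 1) for genes with a mean of at least 1 TPM in the tumors fitted. limma 3.58.1 in R 4.3.3 (eBayes with trend) was fitted to the 72 day 8 tumors with 24 groups, to the 71 untreated tumors, to the 35 Base tumors, and to the 6 day 8 tumors of each model. Effects were averaged over 12 models with equal weight, and an F test compared them between models. P-values were two-sided and Benjamini-Hochberg adjusted over all genes fitted, with a threshold of 0.05. An exact permutation of 3 against 3 tumors cannot go below p = 0.1 and was not used. The labels name each tumor but not each mouse, so p-values measure the spread between these tumors. The scripts were tested on simulated data. All 10 members, up to 10 called genes each of 2 further lists, marker lists and the 5 genes most like Mest were named. The contrasts of NT and Base within models, the fits without BNL 1ME A.7R.1 and B16-F10 or, for other genes, without BNL 1ME A.7R.1, and the tissue markers of the models were added after the values were seen. Alternatives were another pseudocount (0.1), minimum TPM (0 or 5), rescaling, a replicate block, no trend, and leaving out each model or tumor.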

Additional observations from a re-analysis of the deposited data

Results flagged for a closer look

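The effect of lenvatinib on 8 members differed between the 12 models by the F test of limma. The adjusted p was 2.59e-08 for H19, 5.44e-06 for Peg3, 5.88e-06 for Igf2, 8.73e-05 for Grb10, 0.00204 for Meg3 and 0.0033 for Plagl1, with 35.3% of genes called. In the fit with no minimum TPM, in which 20.9% of genes were called, it was 0.000236 for Dlk1 and 0.00383 for Ndn. The Meg3 call was lost without Hepa 1-6 (adjusted p = 0.0691) and the Plagl1 call without BNL 1ME A.7R.1 (0.237).

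The difference of NT and Base also differed between models for 6 members, as it did for 66.5% of genes. The adjusted p was 1.46e-09 for Grb10, 2.78e-08 for Plagl1, 3.06e-07 for H19, 4.84e-05 for Peg3, 0.000281 for Igf2 and 0.0131 for Meg3. Grb10 and Peg3 rose in LL/2, Plagl1 rose in BNL 1ME A.7R.1 and fell in Renca and EMT6, and H19 rose in 4T1 and fell in 4 models. Igf2 was lower in NT in EMT6 (−0.95, limma, adjusted p = 0.000607) and Renca (−0.68, adjusted p = 0.0317), where 33.3% and 11.5% of genes passed. The Renca call was lost with no minimum TPM (0.0502) and with upper-quartile rescaling (0.0542).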

How the results depend on the processing

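Mest was lower in LEN than in NT under every setting tried for the average, from −1.27 to −1.64. With a minimum of 5 TPM, 2 members were lower and 1 higher in LEN, 3 differed in their effect between models and 5 tests within a model passed. With all 72 day 8 tumors fitted together, 16 tests within a model passed in place of 8. A single member was higher in LEN without BNL 1ME A.7R.1, B16-F10 or LL/2 and with the replicate block, under which Igf2 had an adjusted p of 0.0568. Without both BNL 1ME A.7R.1 and B16-F10, 0 were higher and 2 differed between models, which the choice of these models, those with the largest rises of H19 and Igf2, fixes in part. In NT minus Base, 1 member in place of 2 was lower under the block and without B16-F10, BNL 1ME A.7R.1, EMT6, MBT2, RAG or Renca, and 1 to 2 when a tumor was left out, while 3 were lower without LL/2, with no minimum TPM and with a pseudocount of 0.1. The cause was not tested. Leaving out a tumor gave 4 members lower, 2 higher and 6 differing between models in every case, and 7 to 9 calls within models. Of 20 pairs of NT and LEN tumors that share a number none correlated above 0.1 (−0.0762 to 0.0763), and of 25 pairs of Base and NT tumors 1 did, so the numbers do not pair the tumors.

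Some averages that missed the threshold changed sign. NT minus Base was 0.035 for Grb10 without Renca, and for Peg3 it was 0.012 without B16-F10 and 0.0073 without BNL 1ME A.7R.1. For Plagl1 it was −0.14 without BNL 1ME A.7R.1, −0.0093 without CT26.WT, −0.036 without KLN205, −0.017 without LL/2 and −0.024 without MC38, and −0.044, −0.10 and −0.031 with protein-coding rescaling, a pseudocount of 0.1 and upper-quartile rescaling. It ran from −0.014 to 0.042 when a tumor was left out. LEN minus NT of Ndn was −0.0012 without B16-F10, −0.0014 without BNL 1ME A.7R.1, −0.011 without Hepa 1-6 and −0.034 without both BNL 1ME A.7R.1 and B16-F10. Values below 1 TPM were the least certain, since the depth behind them is unknown.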
